A study of Mus musculus with 30 samples.

Results

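Macrophages in which the transcription factor gene Etv1 was targeted by a short hairpin RNA (shRNA) were compared with and without interleukin-4 (IL-4). The comparison held 6 of the 30 libraries of the series, chosen by their sample titles: 3 of Etv1 shRNA macrophages given IL-4 and 3 of Etv1 shRNA macrophages left unstimulated. The cells were grown from the bone marrow of C57BL/6 mice for 7 days in CSF-1 at 20 ng/mL, the growth factor that turns marrow progenitors into macrophages, and were exposed to lentiviral particles that carried the hairpin. IL-4 was given at 20 ng/mL with CSF-1 still present, and unstimulated cells received no IL-4. Both groups carried the Etv1 hairpin, so the knockdown was shared between them. For comparison, 3 control shRNA libraries with IL-4 and 3 control shRNA libraries without stimulus were used. A single Etv1 shRNA group is named, and the labels leave out the sequence of either hairpin, how long IL-4 was present and the origin of the replicates. Since replicates may not stem from different mice or cultures, p-values below measure the spread among these libraries, and that spread may be technical. Libraries of IL-4 with prostaglandin E2 were not compared here, but entered the low-count filter, the scaling and the estimate of spread. The wild type libraries were not analysed here.

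IL-4 acts through a receptor whose shared chain is the IL-4 receptor alpha chain. Janus kinases bound to the receptor phosphorylate STAT6, which pairs, enters the nucleus and binds DNA. In macrophages this starts the program known as alternative activation, with arginase 1, the mannose receptor, other lectins and secreted chitinase-like and resistin-like proteins as its signature, and with CISH and SOCS1 as inhibitors that feed back on the signal. Etv1 encodes a transcription factor of the ETS family, and the design of the series sets the IL-4 response of macrophages with Etv1 knocked down beside that of macrophages with a control hairpin.

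Promoters of 3 genes with very large changes are shown because each holds the spaced palindrome that STAT dimers are known to bind, written TTCNNNGAA or TTCNNNNGAA. The windows run from 250 bases before to 50 bases after the RefSeq start of the gene on GRCm38.p6, 5′ to 3′ on the strand of the gene, and capitals mark the motif. Retnla, which encodes a secreted resistin-like protein, lies on the plus strand at chr16:48842359-48842658. Rasgrp1, which encodes a guanine nucleotide exchange factor for Ras, lies on the minus strand at chr2:117342828-117343127. Cish, which encodes a SOCS-family inhibitor of cytokine receptors, lies on the plus strand at chr9:107296409-107296708.
Retnla: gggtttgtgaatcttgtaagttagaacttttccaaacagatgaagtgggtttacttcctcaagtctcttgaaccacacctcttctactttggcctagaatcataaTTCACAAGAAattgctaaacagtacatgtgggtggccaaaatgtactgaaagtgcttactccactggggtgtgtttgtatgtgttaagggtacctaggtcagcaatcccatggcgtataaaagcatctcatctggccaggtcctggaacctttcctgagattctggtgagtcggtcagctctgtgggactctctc
Rasgrp1: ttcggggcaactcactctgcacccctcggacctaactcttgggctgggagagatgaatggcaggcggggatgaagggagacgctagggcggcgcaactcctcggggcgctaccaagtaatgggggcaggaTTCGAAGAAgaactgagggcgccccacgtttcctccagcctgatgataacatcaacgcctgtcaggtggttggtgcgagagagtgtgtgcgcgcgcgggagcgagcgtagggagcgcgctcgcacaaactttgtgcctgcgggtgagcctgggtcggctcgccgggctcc
Cish: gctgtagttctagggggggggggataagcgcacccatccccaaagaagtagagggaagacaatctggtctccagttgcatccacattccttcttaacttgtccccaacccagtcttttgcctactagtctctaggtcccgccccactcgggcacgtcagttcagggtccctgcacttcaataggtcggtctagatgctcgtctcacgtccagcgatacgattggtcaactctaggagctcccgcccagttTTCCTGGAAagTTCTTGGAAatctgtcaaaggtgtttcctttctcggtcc
The match in Retnla began 145 bases before the start and that in Rasgrp1 120 bases before it. The first match in Cish began at base 1 and the second at base 12 of the transcript. The windows of Aqp3 and Socs1 held no match, which says only that these letters are not in those windows. Each spacing is its own reverse complement, so both strands were searched at once, and a promoter with several matches was counted once. Promoters were available for 263 of the 350 genes at least 2-fold higher with IL-4 and 68 of the 101 at least 2-fold lower. They were available for 9475 of the 12382 tested genes. A match was found in 56 of 360 promoters (15.6%) of the higher genes and in 13 of 83 (15.7%) of the lower genes. The share was 11.8% of promoters of all tested genes and 14.6% of all promoters in the table. For TTCNNNNGAA alone, the spacing in Retnla, the shares were 8.61% (higher), 8.43% (lower), 5.58% (all tested) and 6.95% (all promoters). For TTCNNNGAA alone, the spacing in Rasgrp1 and Cish, they were 7.5%, 7.23%, 6.79% and 8.3%. A match is a description of the letters and not evidence of binding.

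Library totals were 9286288 to 10344596 counts with IL-4 and 6924973 to 11907864 counts unstimulated under Etv1 shRNA. They were 9209367 to 14159884 with IL-4 and 9981301 to 20658411 unstimulated under control shRNA. Levels are given as CPM, counts scaled to a common normalised library size, and a floor of 3 counts in a library corresponded to 0.276 to 0.31 CPM with IL-4 and 0.234 to 0.403 CPM unstimulated under Etv1 shRNA. Under control shRNA the same floor was 0.22 to 0.339 CPM with IL-4 and 0.147 to 0.305 CPM unstimulated. Replicate libraries of the Etv1 shRNA groups differed by chi-square values of 3.28 to 6.69 per degree of freedom. In the control shRNA groups the libraries numbered 2 stood apart, with values of 12.1 to 20.3 against the others and 2.81 to 4.61 between the libraries numbered 1 and 3. The number of genes that differed between hairpins is therefore also given without them. Same-numbered IL-4 and unstimulated libraries of Etv1 shRNA macrophages deviated together from their group means, so counts with the replicate number as a block are given beside several results.

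Etv1 (ENSMUSG00000004151, chromosome 12, 38779380 to 38870484, GRCm38) remained detectable under its hairpin. Its level was 6.00, 4.97 and 5.02 CPM in the 3 IL-4 libraries, against 4.84, 2.51 and 2.97 CPM in the 3 unstimulated libraries. The groups did not overlap, but the highest unstimulated library lay close to the lowest IL-4 library. The log2 change was 0.70 ± 0.23 (± SE, edgeR quasi-likelihood test, adjusted p = 0.0416). It missed the threshold when any library but unstimulated library 1 was left out (adjusted p from 0.0662 to 0.208). The same held with library totals, with upper-quartile scaling and in a fit of the 6 Etv1 shRNA libraries alone (edgeR adjusted p = 0.0523, 0.054 and 0.0564). Control shRNA cells held 13.9 ± 2.07 CPM with IL-4 and 10.6 ± 0.289 CPM unstimulated (mean ± SD, n = 3 each). The hairpin lowered Etv1 relative to control shRNA by 1.39 ± 0.19 with IL-4 and by 1.69 ± 0.20 without it on the log2 scale (edgeR adjusted p = 4.41e-06 and 1.16e-06).

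IL-4 changed 2233 of 12382 tested genes in Etv1 shRNA macrophages (18%, edgeR adjusted p under 0.05), 1346 of them higher (10.9%) and 887 lower (7.16%). At least 2-fold changes were seen in 350 genes higher (2.83%) and 101 lower (0.816%). The median log2 change of all tested genes was 0.01. The split of calls moved with the scaling: 60.3% of calls were higher in the TMM scaling used here, 57.7% with RLE, 49.3% with library totals and 47% with upper-quartile scaling. With the replicate number as a block, 2683 genes were called when the block was shared by both hairpins and 3154 when each hairpin had its own, 1368 of these lower. In a fit of the 6 libraries alone with the block, 4125 genes were called, 2098 higher and 2027 lower.

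The list counts below are to be read beside the shares of all tested genes, 10.9% higher and 7.16% lower. A count near these shares is not a result about its list. The block within each hairpin moved several of the list counts given below. It was chosen after seeing the data. Higher members became 9 for arginine and polyamine genes, 10 for macrophage identity, 10 for fatty acid and lipid genes, 1 for mtDNA-encoded genes and 1 for ribosomal protein genes. Lower members became 7 for chemokines and cytokines, 7 for integrins and matrix, 6 for transcription factors, 5 for inflammatory mediators, 4 for lectins, 4 for fatty acid and lipid genes, 3 for lysosome genes, 3 for the stress response, 2 for alternative activation, 2 for macrophage identity and 1 for antigen presentation. Where a list below has members called in 1 direction and none in the other, DESeq2 also called none, and in that direction an unadjusted p under 0.05 was given to 1 antigen presentation gene and 1 cholesterol gene and to 0 genes of the other lists.

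The largest increases were in genes with almost no reads in unstimulated cells. Retnla had 785, 525 and 1028 counts in the IL-4 libraries, against 1, 0 and 0 counts in the unstimulated libraries. This was 75.1 CPM on average with IL-4, and the ratio of depth-scaled counts was 2410-fold (95% counting interval 431 to 95100). Such intervals cover counting error only. Aqp3, an aquaporin that also passes glycerol, had 106, 54 and 154 counts with IL-4 and 0 in each unstimulated library, at least 108-fold higher against a floor of 3 counts over the group. Scn3a, a voltage-gated sodium channel gene, was at least 76.8-fold higher by the same reckoning, with 87, 66 and 71 counts against 0 in each library. All 3 genes had at most 1 read without stimulus and many in every IL-4 library.

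Rasgrp1 had 88, 74 and 100 counts with IL-4 and a single count unstimulated (ratio 270, 95% counting interval 48 to 10700). Edn1, which encodes the vasoconstrictor endothelin 1, had 63, 37 and 110 counts with IL-4 and a single count unstimulated (ratio 216, interval 38.4 to 8580). Il31ra, a receptor chain for the cytokine IL-31, had a ratio of 169 (29.9 to 6710) and the alpha-tubulin gene Tuba8 a ratio of 60.7 (20.4 to 297). With so few unstimulated reads these ratios have wide intervals, and their order is not fixed by the data.

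Other large increases rested on more reads. Msx3, a homeobox transcription factor gene, had 98.0, 98.9 and 100.4 CPM in the IL-4 libraries, against 0.403, 0.754 and 0.937 CPM in the unstimulated libraries, a log2 change of 7.04 ± 0.17 (edgeR adjusted p = 1.59e-15). Cdh1, the gene of the adhesion protein E-cadherin, had 128, 130.3 and 148 CPM with IL-4, against 1.75, 1.67 and 1.64 CPM unstimulated (6.33 ± 0.33, adjusted p = 1.66e-08). The IL-4 libraries were close to each other for both genes. Hbegf, the gene of heparin-binding EGF-like growth factor, averaged 18.8 ± 3.97 CPM with IL-4 and 0.236 ± 0.158 CPM unstimulated (6.18 ± 0.64, adjusted p = 1.25e-05), and 6.89 without unstimulated library 2. Pecam1, the gene of the adhesion molecule CD31, averaged 7.96 ± 1.24 CPM with IL-4 and 0.108 ± 0.0936 CPM unstimulated (5.89 ± 0.69, adjusted p = 2.08e-05).

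**Figure D1:**
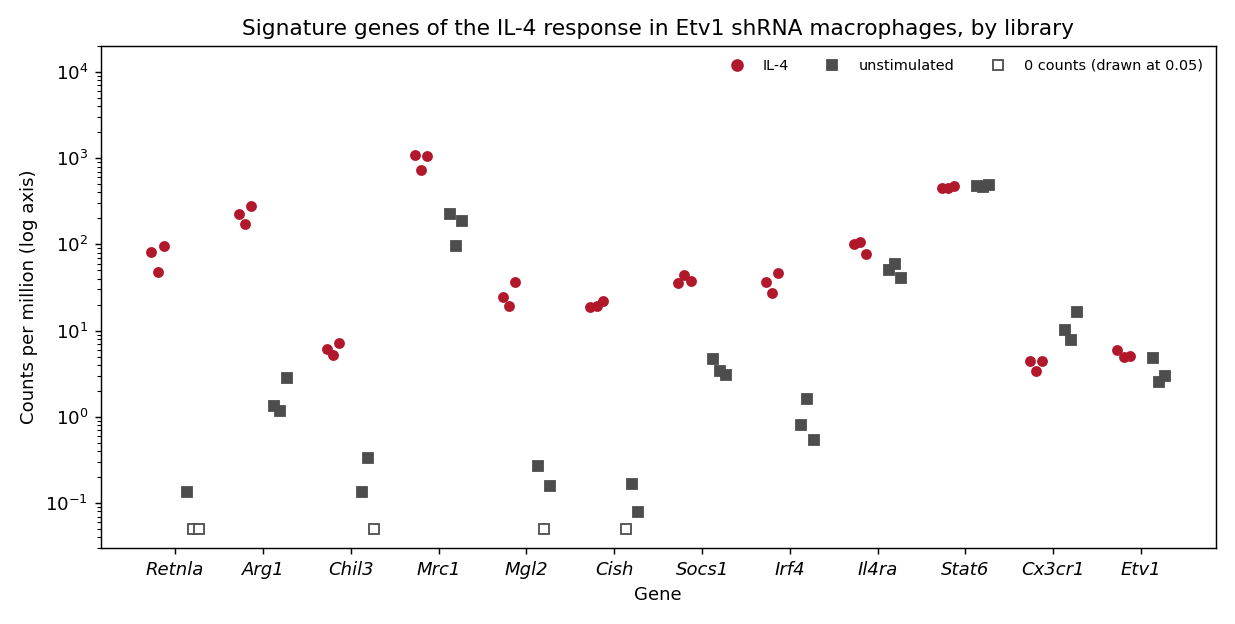
CPM on a log axis for 12 genes in the 3 IL-4 libraries (circles) and the 3 unstimulated libraries (squares) of Etv1 shRNA macrophages, with libraries at 0 counts drawn as open symbols at 0.05. The groups are apart for Retnla, Arg1, Chil3, Mrc1, Mgl2, Cish, Socs1, Irf4, Il4ra and Cx3cr1, and overlap for Stat6.

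Among the receptor and signalling genes, 6 of 20 tested members rose and 2 fell, with a median log2 change of 0.08. Il4ra, the IL-4 receptor alpha chain, had 101, 105 and 78.3 CPM in the IL-4 libraries, against 50.2, 58.7 and 40.8 CPM in the unstimulated libraries (0.93 ± 0.12, edgeR adjusted p = 1.94e-05). Stat6 had 449, 448 and 480.2 CPM with IL-4, against 475, 466 and 483 CPM unstimulated, and did not pass the test (-0.05 ± 0.05, adjusted p = 0.58). The receptor gene was higher in every IL-4 library, while the groups overlapped for the transcription factor that it signals to. Irs2, an adaptor protein of the IL-4 and insulin receptors, rose by 1.42 ± 0.16 (adjusted p = 1.78e-06). The phosphatase genes Ptpn1 (0.24 ± 0.07) and Ptpn2 (0.36 ± 0.08), Stat5a (0.36 ± 0.08) and the kinase subunit gene Pik3r1 (0.20 ± 0.06) rose by less (adjusted p = 0.0184, 0.00176, 0.00354 and 0.0331). The members that fell included Il13ra1, a receptor chain for IL-13 and IL-4, at -0.67 ± 0.18 (adjusted p = 0.0107), and 1 member fell without unstimulated library 2.

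Feedback inhibitors rose in 6 of 10 tested members and none fell, with a median of 0.49. Cish had 181, 210 and 240 counts in the IL-4 libraries, against 0, 2 and 1 counts in the unstimulated libraries, a ratio of 216 (95% counting interval 73.7 to 1050). Socs1, an inhibitor of Janus kinases, had 35.4, 44.7 and 37.6 CPM with IL-4, against 4.71, 3.43 and 3.05 CPM unstimulated (3.44 ± 0.25, edgeR adjusted p = 2.44e-07). The groups of both genes were far apart. Socs2 rose by 4.41 ± 0.38, Socs3 by 1.42 ± 0.23, Socs6 by 0.59 ± 0.07 and Socs5 by 0.40 ± 0.11 (edgeR adjusted p = 4.78e-07, 0.000168, 3.97e-06 and 0.0189). Socs4, Socs7, Pias1 and Pias3 lay between -0.14 and 0.03 and did not pass.

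Of the transcription factors of the IL-4 response, 15 of 30 tested members rose and 3 fell (median 0.28). Irf4, an interferon regulatory factor known to be needed for alternative activation in mouse macrophages, had 36.5, 27.5 and 46.6 CPM with IL-4, against 0.807, 1.59 and 0.547 CPM unstimulated (5.20 ± 0.27, edgeR adjusted p = 7.97e-10). Its change was 5.82 without unstimulated library 2, the highest of the unstimulated libraries. Egr2, an early growth response factor, had 114, 91.2 and 131 CPM with IL-4, against 15.3, 10.1 and 16.1 CPM unstimulated (3.03 ± 0.24, adjusted p = 8.23e-07). Neither gene had overlapping groups. The members that fell, named after their values were seen, were Bcl6, a repressor of STAT6 targets (-0.30 ± 0.08), Fos (-0.74 ± 0.16) and Spic (-1.45 ± 0.45), with adjusted p = 0.0146, 0.00359 and 0.0306. The number that fell was 1 without IL-4 library 1 and 5 with upper-quartile scaling. Nfil3, a basic leucine zipper factor, rose by 1.99 ± 0.15 and Klf4, a zinc finger factor, by 1.18 ± 0.10 (adjusted p = 9.01e-08 and 9.01e-08).

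Of the ETS factors, the family of Etv1 itself, 3 of 17 tested members rose and 2 fell. Etv3 had 332, 325 and 335 CPM with IL-4, against 193, 171 and 194 CPM unstimulated (0.83 ± 0.06, edgeR adjusted p = 6.82e-09), and rose in every pair of libraries. Etv5, a close relative of Etv1, had 168, 151 and 173 CPM with IL-4, against 115, 94.2 and 109 CPM unstimulated (0.63 ± 0.15, adjusted p = 0.00918). Elk3 fell by 0.53 ± 0.06 and Erf by 0.18 ± 0.06 (adjusted p = 2.19e-06 and 0.0389), the call of Erf being lost with DESeq2 (adjusted p = 0.0788) and when any library but unstimulated library 3 was left out. Spi1, which encodes PU.1, the ETS factor that macrophages depend on, was at 0.05 ± 0.06 and did not pass (adjusted p = 0.716).

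The alternative activation genes rose in 21 of 34 tested members, 19 of them at least 2-fold, and 1 fell (median 1.98, against 0.01 over all tested genes). The number that fell was 2 with upper-quartile scaling or either form of the replicate block, 3 without the control shRNA libraries numbered 2 and 4 in the fit of the 6 libraries with the block. Arg1, which encodes arginase 1 and splits arginine into ornithine and urea, had 223, 173 and 276 CPM in the IL-4 libraries, against 1.34, 1.17 and 2.81 CPM in the unstimulated libraries (6.91 ± 0.32, edgeR adjusted p = 4.68e-09). Chil3, a chitinase-like protein that binds but does not cut chitin, had 59, 56 and 77 counts with IL-4, against 1, 4 and 0 counts unstimulated (5.21 ± 0.40, adjusted p = 1.44e-08). Every IL-4 library stood far above every unstimulated library for both. The Chil3 change was 6.68 without unstimulated library 2 and 4.52 without unstimulated library 3, since it rests on 5 unstimulated reads.

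Flt1, a receptor for vascular endothelial growth factor, averaged 191 ± 26.7 CPM with IL-4 and 4.48 ± 0.775 CPM unstimulated (5.4 ± 0.26, edgeR adjusted p = 5.66e-09). Matk, a kinase that inhibits Src-family kinases, rose by 2.42 ± 0.16 (adjusted p = 4.68e-09). The member that fell was Dcstamp, a membrane protein needed for macrophage fusion into giant cells and osteoclasts, with 11.0, 11.9 and 12.7 CPM with IL-4, against 31.2, 25.6 and 34.7 CPM unstimulated (-1.36 ± 0.29, adjusted p = 0.00344). Ccl17 had 1, 1 and 4 counts with IL-4 and 0 in each unstimulated library, and did not enter the test.

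Of the arginine and polyamine genes, 4 of 21 tested members rose and 3 fell (median 0.14). The risers were Arg1, Slc7a2, a transporter that brings arginine into the cell, Sat1 and Eif5a. Slc7a2 had 314, 279 and 329 CPM with IL-4, against 4.03, 6.53 and 4.29 CPM unstimulated (5.93 ± 0.20, edgeR adjusted p = 6.83e-11). Sat1, an enzyme of polyamine breakdown, rose by 0.33 ± 0.08 and Eif5a, the translation factor modified with a polyamine, by 0.32 ± 0.06 (adjusted p = 0.00541 and 0.000623). The polyamine enzymes spermine synthase (Sms, -0.59 ± 0.07), spermine oxidase (Smox, -0.56 ± 0.10) and Amd1 (-0.26 ± 0.07) fell (adjusted p = 1.62e-06, 0.000342 and 0.0155). Odc1, the ornithine decarboxylase that opens polyamine synthesis, was at -0.21 ± 0.09 and did not pass (adjusted p = 0.134).

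Among C-type lectins and scavenger receptors 6 of 18 tested members rose and 2 fell (median 0.11). Mrc1, the mannose receptor, had 1099.8, 726 and 1049 CPM with IL-4, against 227, 96.1 and 187 CPM unstimulated (2.50 ± 0.59, edgeR adjusted p = 0.0101). Mgl2 and Clec10a, the lectins that recognise galactose-type sugars, averaged 26.8 ± 9.06 and 67.4 ± 13.7 CPM with IL-4 and 0.142 ± 0.135 and 10.5 ± 1.99 CPM unstimulated. Their changes were 7.64 ± 0.96 and 2.72 ± 0.37 (edgeR adjusted p = 8.67e-05 and 0.000186), and that of Mgl2, with 4 unstimulated reads, was 7.01 without unstimulated library 2. Clec7a, the beta-glucan receptor dectin 1, had 107, 93.2 and 133 CPM with IL-4, against 10.6, 11.2 and 13.7 CPM unstimulated (3.21 ± 0.18, adjusted p = 1.36e-08). The lectins that fell were Clec4e, the receptor Mincle for mycobacterial glycolipid, at -1.09 ± 0.18 (adjusted p = 0.000404) and Clec12a at -0.51 ± 0.14 (adjusted p = 0.02), and 1 fell without the low-count filter and without IL-4 library 2 or either of the unstimulated libraries 1 and 3.

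Of chemokines and cytokines, 10 of 31 tested members rose and 3 fell (median 0.17). Ccl2, a major attractant of monocytes, had 392, 414 and 369.7 CPM with IL-4, against 42.8, 44.7 and 37.2 CPM unstimulated (3.24 ± 0.33, edgeR adjusted p = 1.51e-05). Its neighbour Ccl7, also a monocyte attractant, had 322, 345 and 288 CPM with IL-4, against 11.8, 9.80 and 10.9 CPM unstimulated (4.88 ± 0.38, adjusted p = 1.17e-06). Both were higher in all IL-4 libraries by wide margins. Pdgfa, a platelet-derived growth factor gene, rose by 1.24 ± 0.10 (adjusted p = 1.44e-08). The members that fell, named after their values were seen, were Cxcl16, Tnfsf9 and Vegfa (-0.67 ± 0.14, -0.74 ± 0.12 and -0.68 ± 0.20, adjusted p = 0.00297, 0.000213 and 0.0283). The number that fell was 5 with upper-quartile scaling, with library totals, with DESeq2 and without IL-4 library 3, and 6 with the replicate block.

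Chemokine and migration receptors were split, with 6 of 15 tested members higher and 6 lower (median 0.52). The higher ones were Ltb4r1, a leukotriene B4 receptor (4.76 ± 0.54, edgeR adjusted p = 3.14e-06), Cmklr1, the chemerin receptor (1.92 ± 0.49, 0.00856), the nucleotide receptors P2ry12 (1.36 ± 0.43, 0.0326), P2ry6 (1.04 ± 0.10, 1.03e-06) and P2ry14 (0.91 ± 0.20, 0.00276), and the complement receptor C3ar1 (0.25 ± 0.07, 0.0203). Cx3cr1, the fractalkine receptor, had 4.45, 3.41 and 4.47 CPM with IL-4, against 10.2, 7.79 and 16.4 CPM unstimulated (-1.51 ± 0.30, adjusted p = 0.00252). Cxcr4, the receptor of the chemokine CXCL12, had 26.0, 27.6 and 27.8 CPM with IL-4, against 63.9, 52.8 and 65.5 CPM unstimulated (-1.16 ± 0.35, adjusted p = 0.0344). Neither had overlapping groups. Ptafr, the receptor of platelet-activating factor, fell by 0.94 ± 0.09, C5ar1 by 0.43 ± 0.10, S1pr1 by 0.40 ± 0.13 and S1pr2 by 0.33 ± 0.10 (adjusted p = 4.75e-07, 0.00389, 0.0459 and 0.0342). Only 3 members fell when any library but IL-4 library 3 was left out.

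Antigen presentation and costimulation genes rose in 8 of 22 tested members and none fell (median 0.39). H2-DMa and H2-DMb1 encode the chains of H2-M, which loads peptides on class II molecules, and rose by 1.56 ± 0.11 and 0.48 ± 0.10 (edgeR adjusted p = 6.82e-09 and 0.00155). H2-DMa had 14.5, 15.3 and 15.3 CPM with IL-4, against 4.84, 4.86 and 5.47 CPM unstimulated. Pdcd1lg2, the checkpoint ligand PD-L2, had 37, 47 and 44 counts with IL-4 and a single count unstimulated, a ratio of 132 (95% counting interval 23.2 to 5240). Cd274, which encodes PD-L1, rose by 1.57 ± 0.37, Cd40 by 1.84 ± 0.25, Cd80 by 0.34 ± 0.10, the invariant chain gene Cd74 by 1.60 ± 0.37 and the class II regulator Ciita by 2.56 ± 0.72 (adjusted p = 0.00996, 8.97e-05, 0.0261, 0.00807 and 0.0156). The class I genes H2-K1 and H2-D1 were at 0.02 ± 0.08 and -0.01 ± 0.06 and did not pass. In several other fits 1 member of the list fell. These were RLE, upper-quartile and library-total scaling, no low-count filter, both forms of the replicate block, the 6 libraries alone with or without the block, and the fits without the control shRNA libraries numbered 2 or without IL-4 library 2.

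Of the inflammatory mediators, 4 of 21 tested members rose and 2 fell (median -0.04). Tnfaip3, the NF-kB inhibitor A20, had 22.1, 22.1 and 26.0 CPM with IL-4, against 8.61, 9.55 and 8.51 CPM unstimulated (1.39 ± 0.12, edgeR adjusted p = 3.37e-08). Nfkb1 rose by 1.14 ± 0.09 and Tlr4, the endotoxin receptor, by 0.38 ± 0.09 (adjusted p = 3.98e-08 and 0.00453). Cd14, the co-receptor of TLR4, had 53.0, 43.7 and 62.1 CPM with IL-4, against 169.7, 122 and 200.2 CPM unstimulated (-1.63 ± 0.26, adjusted p = 0.000577), and Tlr2 fell by 0.71 ± 0.13 (adjusted p = 0.000773). The endotoxin receptor rose and its co-receptor fell.

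Outside these lists, the largest decreases included Diras2, a small GTPase of the Ras family, with 3.0, 3.04 and 5.12 CPM with IL-4, against 15.1, 13 and 13.2 CPM unstimulated (-1.87 ± 0.24, edgeR adjusted p = 1.19e-05). Nox1, an NADPH oxidase, fell by 1.67 ± 0.18 and Mycl, a MYC-family factor, by 1.63 ± 0.25 (adjusted p = 1.18e-06 and 9.49e-05). Syt6, Rnf183, Nlrc3 and Gfra1 also fell, by 1.37 to 1.52. These decreases were smaller than the largest increases.

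**Figure D2:**
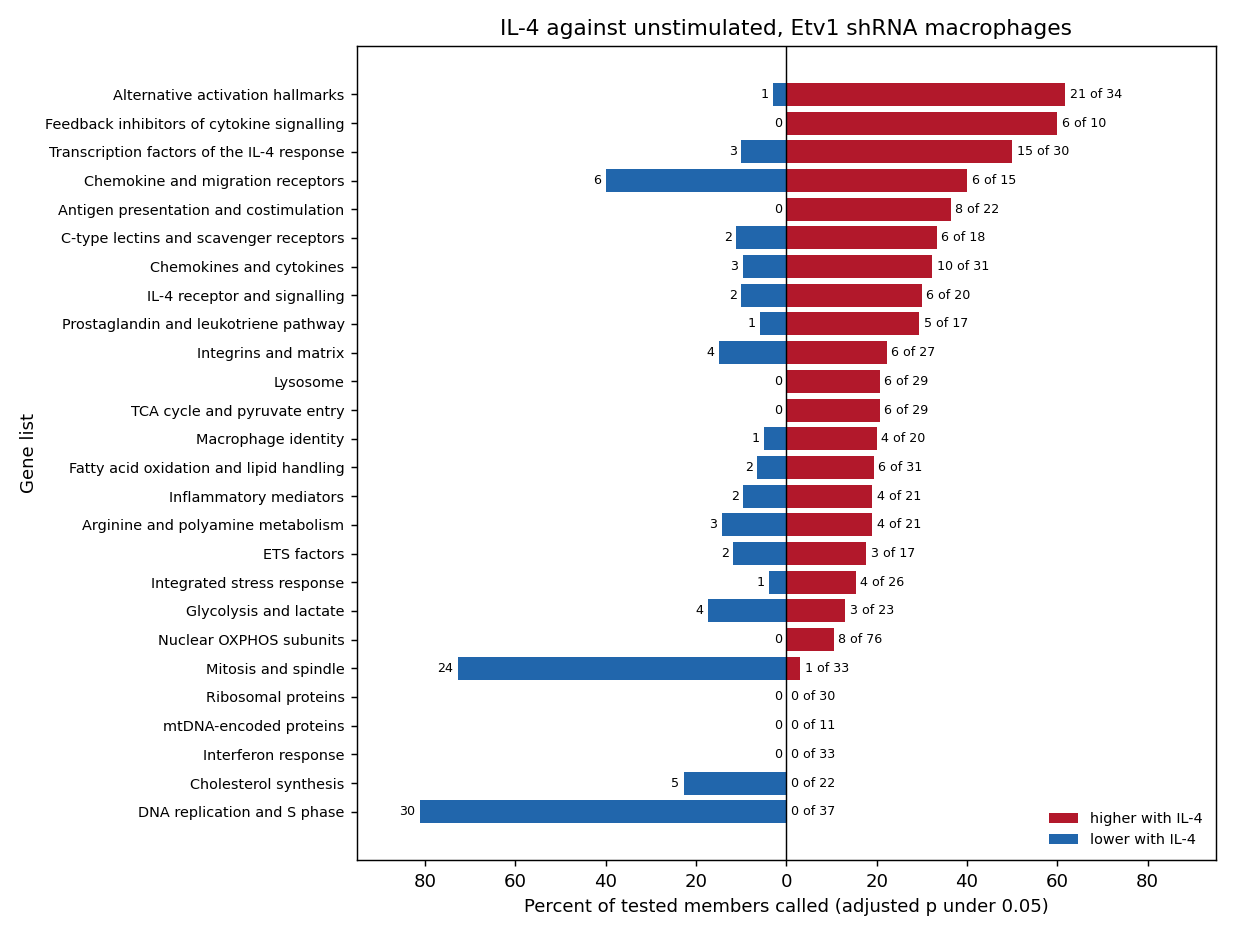
Percent of tested members called higher (red, right) or lower (blue, left) with IL-4 in Etv1 shRNA macrophages, for the 26 lists with at least 10 tested members, with the numbers called beside the bars. Alternative activation genes stand at the top with 21 of 34 higher, and DNA replication and mitosis genes have 30 of 37 and 24 of 33 lower.

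Genes of DNA replication and S phase fell in 30 of 37 tested members and none rose, against 7.16% of all tested genes that fell. The median change was -0.63, and 7 members fell at least 2-fold. Uhrf1, which guides the copying of DNA methylation, had 15.7, 16.3 and 15.6 CPM with IL-4, against 42.6, 47.9 and 38.2 CPM unstimulated (-1.43 ± 0.11, edgeR adjusted p = 1.92e-08). Cdc6, which loads the replicative helicase, had 4.55, 4.42 and 4.37 CPM with IL-4, against 11.8, 16.2 and 11.8 CPM unstimulated (-1.58 ± 0.19, adjusted p = 4.98e-06). The helicase subunit genes Mcm5 and Mcm6 fell by 0.79 ± 0.08 and 0.60 ± 0.06, and the polymerase gene Pole by 1.03 ± 0.11 (adjusted p = 1.07e-06, 2.87e-07 and 1.47e-06). No group of these 5 genes overlapped with its counterpart. Chek1, the kinase of the replication checkpoint, and Dtl, which targets the licensing factor CDT1 for destruction, fell by 1.49 ± 0.24 and 1.47 ± 0.13 (adjusted p = 0.000141 and 9.01e-08).

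Genes of mitosis and the spindle fell in 24 of 33 tested members and 1 rose (median -0.54). Bub1, a kinase of the spindle checkpoint, had 8.90, 10.6 and 9.40 CPM with IL-4, against 18, 20.7 and 17.6 CPM unstimulated (-0.96 ± 0.11, edgeR adjusted p = 2.73e-06). Top2a, the topoisomerase that untangles chromosomes, had 49.1, 48.0 and 47.4 CPM with IL-4, against 76.0, 75.7 and 75.7 CPM unstimulated (-0.66 ± 0.06, adjusted p = 2.51e-07). Bub1b and Prc1 fell by 0.87 ± 0.11 and 0.85 ± 0.10 (adjusted p = 6.13e-06 and 4.01e-06). The member that rose was Spc25, a kinetochore subunit, at 0.45 ± 0.15 (adjusted p = 0.0368), and no member rose with DESeq2, with upper-quartile scaling, with library totals or when any library but IL-4 library 2 was left out. The summed level of the list was 434 to 455 CPM with IL-4 and 637 to 685 CPM unstimulated, and that of the replication list 1030 to 1060 CPM with IL-4 and 1460 to 1570 CPM unstimulated. In bulk libraries, fewer cells in cycle and less RNA per cell cannot be told apart.

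**Figure D3:**
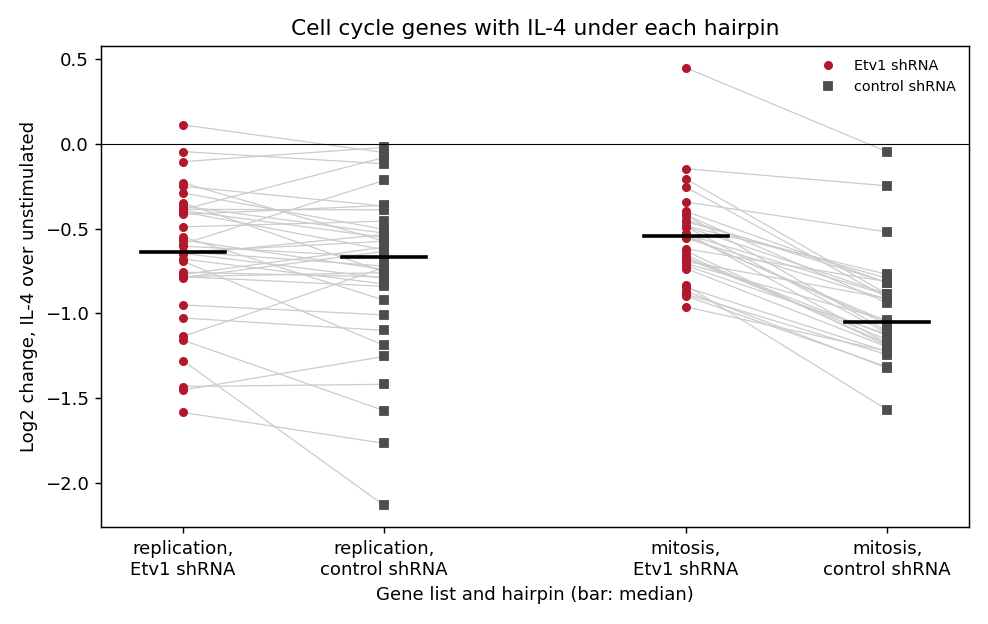
Log2 change with IL-4 of each tested replication gene (left pair) and mitosis gene (right pair) under Etv1 shRNA (red) and control shRNA (grey), joined by gene, with medians as bars. Replication medians are -0.63 and -0.67, and mitosis medians are -0.54 under Etv1 shRNA and -1.05 under control shRNA.

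Changes in the metabolic lists were small. Nuclear genes of the respiratory chain rose in 8 of 76 tested members (median 0.05), a share near the 10.9% of all tested genes that rose. None of 11 mtDNA-encoded genes passed (1 at an unadjusted edgeR p under 0.05, higher, and 0 with DESeq2). Of the mtDNA-encoded genes, mt-Nd2, a complex I subunit gene at 0.16 ± 0.07, passed with a block within each hairpin and in the fit of the 6 libraries alone (edgeR adjusted p = 0.0255 and 0.0195). With the block in those 6 libraries 4 passed, namely mt-Nd2, mt-Cytb, mt-Nd1 and mt-Nd5 (adjusted p = 1.3e-05, 0.00328, 0.00579 and 0.0422). The clearest of the nuclear genes were the complex II gene Sdhd (0.19 ± 0.04, edgeR adjusted p = 0.00413) and the complex III gene Uqcrc1 (0.24 ± 0.06, 0.00466). The nuclear count was 2 with upper-quartile scaling, with library totals or without the low-count filter, and 2 to 4 when a library was left out. Of the TCA cycle and pyruvate genes, 6 of 29 rose, 1 of them Idh1, the cytosolic isocitrate dehydrogenase, with 126, 124 and 111 CPM with IL-4, against 87.8, 79.6 and 80.1 CPM unstimulated (0.55 ± 0.08, adjusted p = 8.16e-05). That count was 1 to 3 in the same fits.

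Of the fatty acid and lipid genes, 6 of 31 tested members rose and 2 fell. Abcg1, which exports cholesterol, had 147, 147 and 168 CPM with IL-4, against 59.0, 71.4 and 66.9 CPM unstimulated (1.22 ± 0.13, edgeR adjusted p = 7.12e-06). Acadm, an acyl-CoA dehydrogenase of fatty acid oxidation, rose by 0.35 ± 0.05 and the fatty acid transporter Cd36 by 0.51 ± 0.13 (adjusted p = 4.64e-05 and 0.0106). The call of Cd36 was lost without unstimulated library 2 (adjusted p = 0.054). Angptl4, an inhibitor of lipoprotein lipase, fell by 1.05 ± 0.19, and the acyl-CoA synthetase gene Acsl1, named after its values were seen, by 0.38 ± 0.12 (adjusted p = 0.000429 and 0.0368). The number that fell was 1 when IL-4 library 1 or 3 or unstimulated library 1 or 2 was left out. The number that rose was 2 without the low-count filter and 3 with upper-quartile scaling, and 2 to 3 without unstimulated library 2 or IL-4 library 1.

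Cholesterol synthesis fell in 5 of 22 tested members and none rose, led by Msmo1 with 116, 112 and 105 CPM with IL-4, against 204, 184 and 199 CPM unstimulated (-0.82 ± 0.08, edgeR adjusted p = 1.53e-07). The number that fell was 3 without IL-4 library 3 or either of the unstimulated libraries 2 and 3.

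Glycolysis genes rose in 3 of 23 tested members and fell in 4. Pfkfb4, which makes an activator of phosphofructokinase, had 73.2, 66.7 and 81.7 CPM with IL-4, against 33.1, 29.4 and 32.4 CPM unstimulated (1.23 ± 0.09, edgeR adjusted p = 1.33e-08), and Hk2 rose by 0.23 ± 0.05 (0.00392). Pkm and the lactate exporter Slc16a3 fell by 0.23 ± 0.06 and 0.27 ± 0.08 (adjusted p = 0.0112 and 0.0223), but only 0 to 2 members fell when a library other than IL-4 library 3 was left out. Of the integrated stress response genes 4 of 26 rose and 1 fell, namely Asns, which was named after its values were seen (-0.31 ± 0.10, adjusted p = 0.0411), a call lost when IL-4 library 2 or 3 or unstimulated library 1 or 3 was left out. Atf3, a stress-induced transcription factor, had 292, 266 and 309.7 CPM with IL-4, against 129, 111 and 127 CPM unstimulated (1.24 ± 0.10, adjusted p = 3.98e-08). Lysosome genes rose in 6 of 29 and none fell, with Mitf at 0.60 ± 0.11 and the cholesterol exporter Npc1 at 0.33 ± 0.06 (adjusted p = 0.000552 and 0.000702). None of 30 ribosomal protein genes passed (2 at an unadjusted edgeR p under 0.05, higher, and 0 with DESeq2), and their changes lay between -0.03 and 0.13. Rps2 passed with a block within each hairpin (edgeR adjusted p = 0.0423), and 6 members, Rps2 among them, in the fit of the 6 libraries with the block.

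Of the prostaglandin and leukotriene genes, 5 of 17 tested members rose and 1 fell (median 0.10). Ptgs1, the cyclooxygenase that opens prostaglandin synthesis, had 65.7, 60.5 and 67.9 CPM with IL-4, against 15.5, 17.5 and 14.5 CPM unstimulated (2.03 ± 0.14, edgeR adjusted p = 6.07e-09). Ptger2, a receptor for prostaglandin E2 that raises cyclic AMP, had 10.7, 11.3 and 11.6 CPM with IL-4, against 1.75, 2.09 and 2.42 CPM unstimulated (2.39 ± 0.19, adjusted p = 1.99e-08). Both genes were higher in every IL-4 library. The prostacyclin receptor gene Ptgir rose by 1.85 ± 0.18, the thromboxane synthase gene Tbxas1 by 0.95 ± 0.11 and Pla2g4a, the phospholipase that frees arachidonic acid, by 0.33 ± 0.10 (adjusted p = 2.23e-07, 7.91e-06 and 0.0241). The transporter gene Abcc4 fell by 0.47 ± 0.12 (adjusted p = 0.00764). Ptger4, the other receptor for prostaglandin E2 that raises cyclic AMP, was at 0.21 ± 0.12 and did not pass (adjusted p = 0.278).

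Of the integrin and matrix genes, 6 of 27 tested members rose and 4 fell. Itgb3, the beta 3 integrin, had 63.9, 71.4 and 65.3 CPM with IL-4, against 12.1, 16.1 and 10.9 CPM unstimulated (2.36 ± 0.30, edgeR adjusted p = 8.16e-05), and Itgax, which encodes CD11c, rose by 1.59 ± 0.26 (0.00064). Itga6 and Itga5, alpha chains of laminin and fibronectin receptors, fell by 0.76 ± 0.09 and 0.55 ± 0.08 (adjusted p = 3.93e-06 and 2.83e-05). The others that fell, named after their values were seen, were Itga4 and Spp1, which encodes osteopontin (-0.43 ± 0.12 and -0.59 ± 0.18, adjusted p = 0.0254 and 0.0344). The number that fell was 2 without the low-count filter and without any of 3 single libraries, IL-4 library 2 and unstimulated libraries 1 and 3.

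None of the 33 interferon response genes passed the edgeR test without a block, 0 of them had an unadjusted p under 0.05, and DESeq2 called 0. Their median change was -0.24 and 31 of 33 estimates were below 0. The summed level of the list was 2129, 2425 and 4004 CPM in IL-4 libraries 1, 2 and 3, against 2323, 3315 and 4532 CPM in unstimulated libraries 1, 2 and 3. The groups overlapped, and in both the library numbered 3 was the highest and the library numbered 1 the lowest. Within pairs of the same number, the IL-4 library held 91.6%, 73.1% and 88.4% of the sum of its unstimulated partner. Of the 33 genes, 22, 31 and 26 were lower in the IL-4 library of the pair, against 47.4%, 47.3% and 48.3% of all tested genes. With the replicate number as a block shared by both hairpins 0 were called. With a block within each hairpin 3 were lower, namely Ifit3, Mx2 and Oasl1 (edgeR adjusted p = 0.0443, 0.0115 and 0.00882), and in a fit of the 6 libraries alone with the block 19 were lower and 1 was higher. The result of this list thus depends on how the replicate number is fitted and on which libraries are in the fit.

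**Figure D4:**
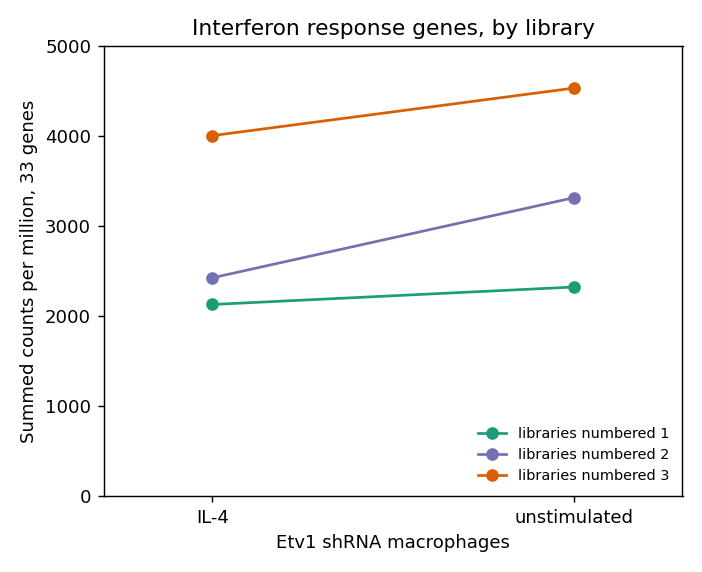
Summed CPM of the 33 interferon response genes in IL-4 (left) and unstimulated (right) libraries of Etv1 shRNA macrophages, with a line for each replicate number. The IL-4 library is lower in each of the 3 pairs, at 91.6%, 73.1% and 88.4% of its partner, while the pairs span a wider range than the change.

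The labelled cell type was checked against its markers. Of 20 macrophage identity genes 4 rose and 1, Cd14, fell, and their sum was 15600 to 16100 CPM with IL-4 and 14400 to 14900 CPM unstimulated. Fcgr3, an Fc receptor, rose by 0.97 ± 0.07, Mertk, a receptor for the uptake of dying cells, by 0.64 ± 0.13 and Csf1r by 0.21 ± 0.05 (edgeR adjusted p = 1.37e-08, 0.00216 and 0.00383). Other cell types left few reads. Neutrophil markers summed to 5.02 to 10.0 CPM with IL-4 and 2.73 to 7.29 CPM unstimulated, 3 of 14 were tested, Cxcr2 rose (4.06 ± 0.53, adjusted p = 1.14e-05), and Ly6g, Elane, Prtn3, Ctsg, Retnlg and Lcn2 were at 0 counts. Dendritic cell markers summed to 39.5 to 40.5 CPM with IL-4 and 35.2 to 41.7 CPM unstimulated, and of 3 tested of 10 Zbtb46 rose (2.09 ± 0.48, adjusted p = 0.00355, and 2.74 without unstimulated library 3), a gene that did not enter the fit of the 6 libraries alone. Siglech and Ccr7 were at 0 counts. Stromal markers summed to 7.64 to 9.96 CPM with IL-4 and 0.672 to 2.01 CPM unstimulated, with Pecam1 at 8.80, 6.54 and 8.56 CPM in the IL-4 libraries, while Col1a2, Col3a1, Pdgfra, Lepr and Lum were at 0 counts and 4 of 11 were tested. Mast cell and basophil markers summed to 1.97 to 2.30 CPM with IL-4 and 3.75 to 5.38 CPM unstimulated, of which 1 of 9 was tested and fell, Gata2 (-1.10 ± 0.29, adjusted p = 0.0113), while Cpa3, Mcpt4, Mcpt8, Tpsb2, Tpsab1, Fcer1a and Ms4a2 were at 0 counts. Lymphocyte markers summed to 0.465 to 0.829 CPM with IL-4 and 0.538 to 1.09 CPM unstimulated, and erythroid and megakaryocyte markers to 0.829 to 1.35 CPM with IL-4 and 0.937 to 1.09 CPM unstimulated. Lymphocyte markers at 0 counts included Cd3e, Cd3g and Cd8a, and erythroid and megakaryocyte markers at 0 counts included Hba-a1, Hbb-bs, Alas2 and Gata1. Of the 2 of 12 and 1 of 12 tested members of these lists, 0 passed with edgeR or DESeq2 and 0 had an unadjusted p under 0.05. The part of other cells in the results above was not tested.

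The same contrast in control shRNA macrophages shows where the Etv1 shRNA response differed. There, 4247 of 12382 genes were called (34.3%), 2130 higher (17.2%) and 2117 lower (17.1%). Of the genes higher under Etv1 shRNA, 1110 were also higher under control shRNA, which is 82.5% of the Etv1 shRNA genes and 52.1% of the control shRNA genes. Of the genes lower under Etv1 shRNA, 755 were also lower under control shRNA, which is 85.1% and 35.7%. Of the 1110 shared higher genes, 827 (74.5%) changed less under Etv1 shRNA, with medians of 0.55 under Etv1 shRNA and 0.77 under control shRNA. Of the 755 shared lower genes, 626 (82.9%) changed less, with medians of -0.50 and -0.77. In opposite directions, 10 genes were called. The hairpins also differed without stimulus, with 3084 of 12382 genes higher under Etv1 shRNA and 3320 lower (edgeR adjusted p under 0.05).

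The difference between the responses was tested directly and called for 559 genes (4.51%), 335 positive and 224 negative (Etv1 shRNA change minus control shRNA change, edgeR adjusted p under 0.05). In 442 of them both changes had the same sign and the one under Etv1 shRNA was smaller, in 20 it was larger, and in 97 the signs differed. The number called was 984 with the replicate block, 1413 with a block within each hairpin and 1100 without the control shRNA libraries numbered 2. It was 361 without control shRNA IL-4 library 1 and 360 without control shRNA IL-4 library 3.

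**Figure D5:**
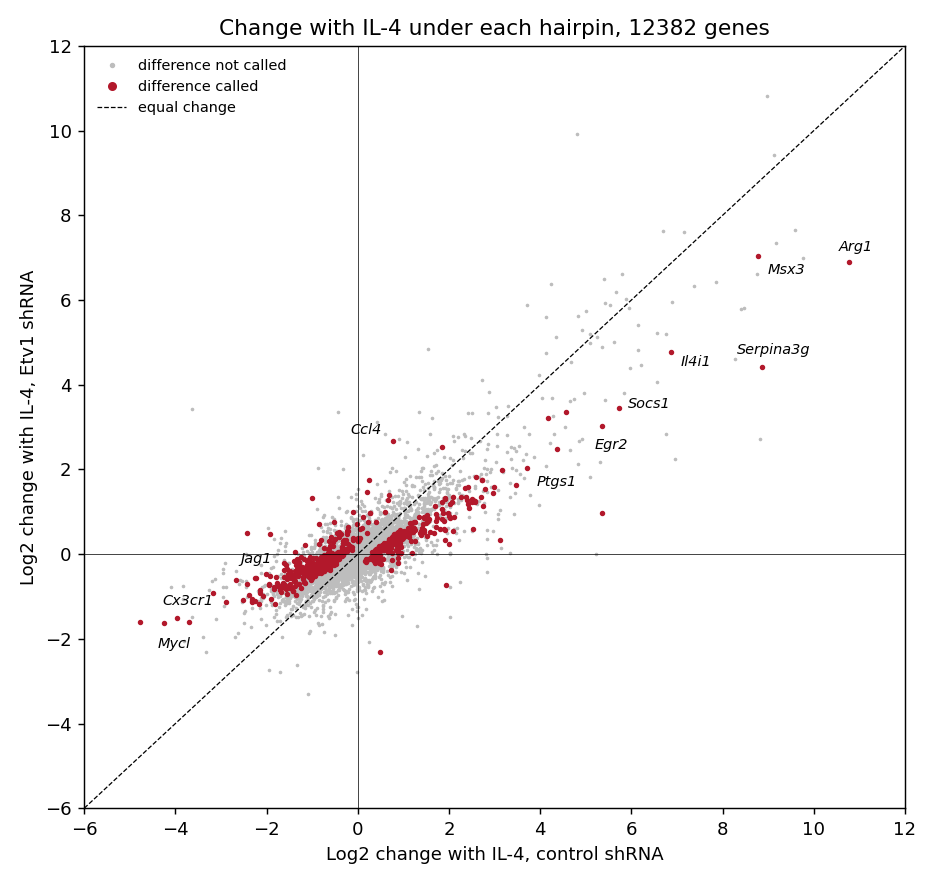
Log2 change with IL-4 under Etv1 shRNA (vertical) and control shRNA (horizontal) for the 12382 tested genes, with the 559 genes whose difference was called in red and the line of equal change dashed. Most red points lie nearer to 0 on the Etv1 shRNA axis than on the control shRNA axis, among them Arg1, Serpina3g, Socs1 and Cx3cr1.

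Induced genes that rose less under Etv1 shRNA were led by Serpina3g, a serine protease inhibitor, and Arg1. Arg1 averaged 224 ± 51.2 CPM with IL-4 and 1.78 ± 0.900 CPM unstimulated under Etv1 shRNA. Under control shRNA it averaged 597 ± 90.0 CPM with IL-4 and 0.307 ± 0.0953 CPM unstimulated. Its level under Etv1 shRNA was thus lower than under control shRNA with IL-4 (log2 -1.41 ± 0.20, edgeR adjusted p = 5.36e-05) and higher without it (2.46 ± 0.72, adjusted p = 0.0114). The difference of the changes was -3.87 ± 0.73 (edgeR adjusted p = 0.00843), and -3.30 with adjusted p = 0.0602 without Etv1 shRNA unstimulated library 3. The unstimulated control shRNA level of Arg1 lay close to the floor of 3 counts (0.147 to 0.305 CPM), so the size of its induction there is uncertain. Serpina3g averaged 14.9 ± 2.76 CPM with IL-4 and 0.684 ± 0.0652 CPM unstimulated under Etv1 shRNA. Under control shRNA its counts summed to 849 over the IL-4 libraries and 2 over the unstimulated libraries. The ratio of depth-scaled counts there was 575 (95% counting interval 159 to 4760), so the size of that induction is uncertain. The Serpina3g difference of -4.44 ± 0.84 (edgeR adjusted p = 0.00352) was -6.84 without control shRNA unstimulated library 1, which held its only reads in that group.

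Egr2 averaged 112 ± 20.0 CPM with IL-4 and 13.8 ± 3.24 CPM unstimulated under Etv1 shRNA, against 229 ± 23.7 and 5.54 ± 0.596 CPM under control shRNA (difference -2.32 ± 0.36, edgeR adjusted p = 0.00242). Socs1 averaged 39.2 ± 4.84 and 3.73 ± 0.869 CPM under Etv1 shRNA, against 118 ± 23.9 and 2.36 ± 0.596 CPM under control shRNA (difference -2.27 ± 0.42, adjusted p = 0.00587). For both, the IL-4 level was lower under Etv1 shRNA (-1.03 ± 0.20 and -1.59 ± 0.18, adjusted p = 0.000647 and 3.59e-06), and the unstimulated level of Egr2 was higher (1.29 ± 0.30, adjusted p = 0.00273). St7 and Chst7 had differences of -1.93 ± 0.22 and -1.89 ± 0.35 (adjusted p = 4.84e-05 and 0.00449). Il4i1, an oxidase of aromatic amino acids that IL-4 induces, had a difference of -2.10 ± 0.54 and Hebp2 of -1.82 ± 0.50 (adjusted p = 0.0414 and 0.0423). The last 2 calls were lost when most single libraries were left out, and that of Il4i1 also with the replicate block (adjusted p = 0.0659).

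Within the lists, smaller increases under Etv1 shRNA were called for Msx3 (-1.74 ± 0.46), Ptgs1 (-1.69 ± 0.22), Nfil3 (-1.17 ± 0.22), Clec7a (-0.96 ± 0.24), Etv3 (-0.73 ± 0.08), Pfkfb4 (-0.62 ± 0.13), Nfkb1 (-0.55 ± 0.13) and Npc1 (-0.42 ± 0.09). These were taken from the 4 members of lowest adjusted p in each list. Not all called members are named, and the prostaglandin and leukotriene list held 3 negative differences. Ptgs1 was the exception in level, at 64.7 ± 3.82 CPM with IL-4 and 15.8 ± 1.52 CPM unstimulated under Etv1 shRNA, against 45.8 ± 9.26 and 3.33 ± 0.984 CPM under control shRNA. It was thus higher under Etv1 shRNA in both conditions (0.49 ± 0.13 with IL-4 and 2.18 ± 0.18 unstimulated, edgeR adjusted p = 0.00321 and 1.6e-08). Hallmarks whose difference did not pass were Retnla, Chil3, Mrc1, Mgl2, Irf4, Cish and Il4ra. For Mrc1 the difference was -0.94 ± 0.80, for Irf4 -1.57 ± 0.55 and for Il4ra -0.15 ± 0.16 (adjusted p = 0.673, 0.137 and 0.748), and that of Irf4 passed with DESeq2 (adjusted p = 0.0173). Retnla went the other way in level, at 81.2, 48.3 and 95.6 CPM in the IL-4 libraries under Etv1 shRNA, against 5.64, 3.61 and 6.31 CPM under control shRNA (3.84 ± 0.34, adjusted p = 1.98e-06). With 0 unstimulated counts under control shRNA its induction there was at least 74.5-fold, so the sizes of the 2 inductions cannot be compared.

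Repressed genes that fell less under Etv1 shRNA were led by Mycl and Cx3cr1. Cx3cr1 averaged 4.11 ± 0.607 CPM with IL-4 and 11.5 ± 4.44 CPM unstimulated under Etv1 shRNA, against 16.6 ± 1.37 and 256 ± 42.1 CPM under control shRNA (difference 2.45 ± 0.39, edgeR adjusted p = 0.00244). Its unstimulated level was already lower under Etv1 shRNA by 4.46 ± 0.21 (adjusted p = 6.48e-10). Jag1, a Notch ligand, averaged 31.0 ± 2.26 and 45.6 ± 2.39 CPM under Etv1 shRNA, against 28.8 ± 6.33 and 137 ± 2.25 CPM under control shRNA (difference 1.70 ± 0.14, adjusted p = 1.13e-06). The levels of Jag1 differed between hairpins without stimulus (-1.59 ± 0.09, adjusted p = 6.51e-11) and lay within the spread with IL-4 (0.11 ± 0.10, adjusted p = 0.379). Mycl was the reverse, at 2.31 ± 0.152 and 7.24 ± 1.2 CPM under Etv1 shRNA, against 0.261 ± 0.0667 and 5.10 ± 1.76 CPM under control shRNA, so that the hairpins differed with IL-4 (3.12 ± 0.46, adjusted p = 1.23e-05) more than without it (0.51 ± 0.22, adjusted p = 0.0616). The difference of the Mycl changes was 2.61 ± 0.53 (edgeR adjusted p = 0.00568). The control shRNA level of Mycl with IL-4 lay at the floor of 3 counts (0.22 to 0.339 CPM), so the size of its decrease there is uncertain.

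Sncaip, Kcnk12, a potassium channel gene, and Atp2b4, a calcium pump gene, had differences of 2.27 ± 0.44, 1.76 ± 0.30 and 1.55 ± 0.28 (edgeR adjusted p = 0.00552, 0.00187 and 0.00552). Nap1l2 had a difference of 2.09 ± 0.51 (adjusted p = 0.0215), which missed the threshold without Etv1 shRNA IL-4 library 2, control shRNA IL-4 library 3 or control shRNA unstimulated library 1 (adjusted p = 0.123, 0.0698 and 0.0517). In the lists, smaller decreases were called for Clec4e (1.43 ± 0.24), Itga6 (1.0 ± 0.12), Ptafr (0.61 ± 0.13), Slc16a3 (0.61 ± 0.11) and Top2a (0.53 ± 0.09). These too came from the 4 members of lowest adjusted p in each list. Further called members are not named, and the glycolysis list held 5 positive differences.

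The replication genes had medians of -0.63 under Etv1 shRNA and -0.67 under control shRNA, with 30 members lower under Etv1 shRNA and 32 under control shRNA, and 1 of 37 had a called difference. The mitosis genes had medians of -0.54 under Etv1 shRNA and -1.05 under control shRNA, with 24 members lower under Etv1 shRNA and 32 under control shRNA, and 8 of 33 had a called difference, all positive, against 4.51% of all tested genes. Top2a averaged 48.1 ± 0.859 CPM with IL-4 and 75.8 ± 0.174 CPM unstimulated under Etv1 shRNA, against 63.8 ± 2.74 and 145 ± 11.0 CPM under control shRNA (difference 0.53 ± 0.09, edgeR adjusted p = 0.0012). Its unstimulated level was lower under Etv1 shRNA by 0.93 ± 0.06 and its IL-4 level by 0.41 ± 0.06 (adjusted p = 2.15e-10 and 2.3e-05). Whether the mitosis list as a whole differed from the replication list was not tested.

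A small set of genes responded more under Etv1 shRNA. Of 358 genes called under Etv1 shRNA and not under control shRNA, the difference itself was called for 25, and the others are not shown to differ. Ccl4, a chemokine for monocytes and lymphocytes, averaged 18.3 ± 5.07 CPM with IL-4 and 2.79 ± 0.560 CPM unstimulated under Etv1 shRNA, against 64.6 ± 18 and 37.8 ± 6.19 CPM under control shRNA (difference 1.89 ± 0.43, edgeR adjusted p = 0.0209). That call was lost when any of the 3 unstimulated Etv1 shRNA libraries was left out (adjusted p from 0.0569 to 0.0645), and without control shRNA unstimulated library 1 (0.055). Its neighbour Ccl3, among the 25 and named after its values were seen, averaged 14.1 ± 1.59 and 5.03 ± 0.80 CPM under Etv1 shRNA, against 43.9 ± 9.95 and 38.1 ± 9.09 CPM under control shRNA (difference 1.27 ± 0.31, adjusted p = 0.0288). Both chemokines stayed below their control shRNA levels in each condition. Tnfaip3 had a difference of 0.70 ± 0.15 (adjusted p = 0.00749), with 23.4 ± 2.22 and 8.89 ± 0.572 CPM under Etv1 shRNA, against 72.4 ± 3.44 and 44.9 ± 2.49 CPM under control shRNA. Idh1 averaged 120.3 ± 8.01 CPM with IL-4 and 82.5 ± 4.62 CPM unstimulated under Etv1 shRNA, against 95.4 ± 12.7 and 110.3 ± 6.72 CPM under control shRNA (difference 0.76 ± 0.12, adjusted p = 0.000717), and Socs6 had a difference of 0.53 ± 0.10 (adjusted p = 0.00256).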

How the data were processed

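Libraries of 6 shRNA groups were made with a stranded mRNA kit, per the labels' protocols. The authors deposited, for each library, raw read counts per Ensembl gene. STAR, featureCounts, deepTools, DESeq2 and GRCm38 are named in the submitters' processing notes, while versions and the strand setting of the counting are not given in the sources used here. Overlapping and antisense genes are therefore uncertain where counting could split or lose their reads. The same holds for related genes of similar sequence, such as Ccl3 and Ccl4, Chil3 and Chil4, or Mgl2 and Clec10a.

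Of 43629 identifiers, 97.52% matched a GENCODE symbol of the same build. The 18 shRNA libraries, 6 groups of 3, were fitted together in edgeR 4.0.16 (R 4.3.3) with TMM scaling, the default low-count filter over groups and the robust quasi-likelihood test, with Benjamini-Hochberg adjustment over 12382 genes and a threshold of 0.05. The standard error is the log2 change divided by the square root of its F value. CPM are on the TMM-scaled library sizes. The script was tested on simulated data. The depth of 6924973 to 11907864 counts puts a floor of 3 counts at 0.234 to 0.403 CPM in the 6 Etv1 shRNA libraries compared. Intervals and floors cover counting error only.

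Deviations from group means of same-numbered IL-4 and unstimulated Etv1 shRNA libraries had correlations over genes of 0.187 to 0.325, and those of different numbers -0.252 to -0.0664, so the numbers were taken to pair these libraries; the labels do not say what a number marks. Over all 45 same-numbered pairs of the shRNA groups, 34 had a correlation over 0.1. The planned fit has no block, so standard errors and adjusted p of single genes leave the pairing out unless a block is named. Genes that did not pass in it include some that passed with a block, such as mt-Nd2.

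Named genes were the hallmark genes, the 15 largest changes in each direction at 5 CPM or more with groups that do not overlap (given in part), the 8 largest differences in each direction, for each list the 4 members of lowest adjusted p, and any member of lists of up to 22 genes. Acsl1, Asns, Bcl6, Ccl3, Cxcl16, Fos, Itga4, Oasl1, Spc25, Spic, Spp1, Tnfsf9 and Vegfa were named after their values were seen. Some members of these groups are not reported here. The comparison, the 32 gene lists and the rule were chosen with earlier results of these data known. Alternatives were other scalings, DESeq2 1.42.0, other filters, subsets of libraries, replicate blocks and leaving out each library.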

Additional observations from a re-analysis of the deposited data

Results flagged for a closer look

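The count here covers the hallmark genes, the largest changes and differences, and the 4 members of lowest adjusted p in each list. Of these, 32 had an IL-4 change that differed between Etv1 shRNA and control shRNA macrophages by the test of the difference itself. That edgeR test called 559 of 12382 genes at an adjusted p under 0.05. Other genes named above, such as Ccl3, were not counted. Differences are log2 change under Etv1 shRNA minus log2 change under control shRNA. Single genes were not flagged for a library far from the others, since no group had the 4 or more libraries needed. Over all genes the control shRNA libraries numbered 2 stood apart, with chi-square values of 12.1 to 20.3 per degree of freedom against the others.

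Genes of the IL-4 program with a negative difference were Serpina3g (-4.44), Arg1 (-3.87), Egr2 (-2.32), Socs1 (-2.27), Il4i1 (-2.10), Msx3 (-1.74), Nfil3 (-1.17), Clec7a (-0.96) and Etv3 (-0.73). Other negative differences were those of St7 (-1.93), Chst7 (-1.89), Hebp2 (-1.82), Ptgs1 (-1.69), Pfkfb4 (-0.62), Nfkb1 (-0.55) and Npc1 (-0.42). All of these genes had a positive change under both hairpins.

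Positive differences of genes with a negative change under both hairpins were those of Mycl (2.61), Cx3cr1 (2.45), Sncaip (2.27), Nap1l2 (2.09), Kcnk12 (1.76), Jag1 (1.70), Atp2b4 (1.55), Clec4e (1.43), Itga6 (1.0), Ptafr (0.61), Slc16a3 (0.61) and Top2a (0.53). Positive differences of genes with a positive change under Etv1 shRNA were those of Ccl4 (1.89), Idh1 (0.76), Tnfaip3 (0.70) and Socs6 (0.53). Ccl3 (1.27), which is outside the count, also had a called positive difference and a positive change under Etv1 shRNA.

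Without stimulus, 3084 of 12382 tested genes were higher under Etv1 shRNA than under control shRNA and 3320 were lower (edgeR adjusted p under 0.05). With IL-4 these numbers were 3145 and 3172. Several of the genes listed above were among those whose unstimulated levels already differed between the hairpins. Etv1 shRNA minus control shRNA was -4.46 ± 0.21 for Cx3cr1, -3.71 ± 0.32 for Ccl4, -1.59 ± 0.09 for Jag1, 2.18 ± 0.18 for Ptgs1, 2.46 ± 0.72 for Arg1 and 1.29 ± 0.30 for Egr2 on the log2 scale (edgeR adjusted p = 6.48e-10, 3.91e-07, 6.51e-11, 1.6e-08, 0.0114 and 0.00273). The part of these levels in the differences was not tested.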

How the results depend on the processing

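Alternative fits of single genes covered part of the named genes. IL-4 changes were refitted for the hallmark genes, the largest changes and the 4 members of lowest adjusted p in each list. Differences were refitted for the hallmark genes and the 8 largest in each direction. The other reported differences were not tested in this way. Among the refitted values, none that was called changed sign in any fit. Among values that were not called, 12 of 417 for the IL-4 change and 1 of 207 for differences changed sign, the widest being Mpo (0.03, against -0.81 without IL-4 library 2 and -0.64 without unstimulated library 3) and the Chil3 difference (-1.34, against 0.13 without unstimulated library 2). The count of genes called for IL-4 under Etv1 shRNA was 2007 to 4125 in the other settings and moved by over 1.5 times in the fit of the 6 libraries with the replicate block (4125, with 2098 higher and 2027 lower) and, for lower genes, with a block within each hairpin (1368). Leaving out a library gave 1713 to 1822 genes, 1022 to 1125 higher and 671 to 715 lower. The count of differences between hairpins was 524 to 1413 in the other settings, with 984 (585 positive and 399 negative) under the replicate block, 1413 (845 and 568) with a block within each hairpin and 1100 (556 and 544) without the control shRNA libraries numbered 2. The last 2 settings were chosen after seeing the data. Leaving out a library gave 360 to 762 differences, 176 to 442 of them positive and 152 to 320 negative. Positive differences numbered 176 without control shRNA IL-4 library 1, 208 without control shRNA IL-4 library 3 and 218 without control shRNA unstimulated library 1. Control shRNA calls numbered 3490 to 4331 when a library was left out. Among the refitted values of single genes, 2497 stayed on the same side of the threshold for the IL-4 change, 17 passed newly and 67 no longer passed. For differences these were 542, 3 and 30. Counts per list stayed within 1.5 times in 1057 fits and moved further in 159. The cause of these moves was not tested. With 3 libraries a group of 6924973 to 20658411 counts, genes near the floor have wide intervals.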

Other observations

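Of the 25 genes called with IL-4 under Etv1 shRNA and not under control shRNA whose difference was also called, 24 had a positive change under Etv1 shRNA. They were outside the lists for the most part and were chosen after their values were seen. Aatk, a membrane-bound kinase gene, changed by 1.75 under Etv1 shRNA and had an estimate of 0.25 under control shRNA (difference 1.5, edgeR adjusted p = 0.000412). Ndrg1, a gene known to respond to hypoxia, changed by 1.0 under Etv1 shRNA, with -0.11 under control shRNA (difference 1.12, adjusted p = 0.00145). Dusp6, a phosphatase that inactivates ERK kinases, changed by 0.33 under Etv1 shRNA, with -0.10 under control shRNA (difference 0.43, adjusted p = 0.038). Mr1, which presents microbial metabolites to T cells, changed by 0.54 under Etv1 shRNA, with -0.23 under control shRNA (difference 0.77, adjusted p = 0.0482).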
